A study of Rattus norvegicus with 26 samples.

Results

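miR-451, miR-144 and miR-486 are the best known miRNAs of red cells, and they were followed here as a sign of blood left in the regenerating rat liver. The members were chosen by name: every entry of the miRNA arrays called rno-miR-451, rno-miR-144 or rno-miR-486, without their star strands. Of the 3 names, 2 had probes among the 677 miRNAs of the files used. miR-486 was not analysed here. Liver miRNA was measured in 26 male Sprague-Dawley rats, with 1 array per rat, in 9 groups. Normal liver (3 rats) came from animals without partial hepatectomy (PH), although the protocol label of these samples reads sham. The other groups were right lobes taken after 1/3PH, in which the left lateral lobe was removed, or after 2/3PH, the larger resection, with hours 6, 12, 24 and 36 sampled for each operation. Each group held 3 rats, except for 2 at 6 hours after 1/3PH, where the authors had excluded 1 array of poor quality. All groups had total RNA of liver lobe labelled with Cy3, and the sources used here do not say whether blood was flushed from the lobe. Hours are those of the sample titles, which for some arrays are 1 or 2 hours short of the source name.

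Red cells lose their nucleus but keep small RNAs, and miR-451 and miR-144 are made together from 1 transcript that the factor GATA1 switches on while red cells form. miR-451 is the unusual member: its hairpin is too short for Dicer and is cut by Argonaute 2 instead, so that it has no ordinary star strand. miR-486 is made from another locus and is also abundant in red cells. Because mature hepatocytes make little of these miRNAs, they are widely used to judge how much red cell material a sample of tissue or plasma holds. In whole tissue, fewer cells of a type and less RNA per cell cannot be told apart.

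Both measured members lie side by side in the rat genome. In the RefSeq annotation of build GRCr8 the Mir144 hairpin lies at chr10:63459397-63459479 and the Mir451a hairpin at chr10:63459569-63459640, both on the plus strand and 89 bases apart. The RefSeq table holds 0 other genes overlapping that span. The nearest protein-coding genes are Flot2 at chr10:63424084-63445811, 13585 bases before Mir144, and Eral1 at chr10:63459774-63466829, which begins 133 bases after Mir451a. The mature strands are shown with bases 2 to 8, the seed that pairs with targets, in capitals. The miR-101 strands are included because they are the nearest relatives of miR-144 by seed.
miR-451: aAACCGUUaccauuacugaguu
miR-144: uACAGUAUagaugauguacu
miR-144*: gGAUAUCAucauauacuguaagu
miR-101a: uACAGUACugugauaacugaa
miR-101b: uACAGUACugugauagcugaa

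The seed of miR-451 belonged to 1 of the 693 mature rat names in the RefSeq table, miR-451 itself. The seed of miR-144 was also held by 1 name, but bases 2 to 7 were shared by 3, namely miR-144 and both miR-101 strands, which differ from it at the last base of the seed. The array names match RefSeq's rno-miR-451-5p, rno-miR-144-3p, rno-miR-144-5p, rno-miR-101a-3p and rno-miR-101b-3p. In the miR-144 hairpin of 83 bases, miR-144* takes up bases 13 to 35 and miR-144 bases 50 to 69. In the miR-451 hairpin of 72 bases, the mature strand takes up bases 17 to 38.

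The software detected miR-451 on 26 of 26 arrays and miR-144 on 1. That array was m24, from 24 hours after 1/3PH, and it also had the highest miR-451 of all arrays. Each member had 2 probes and 20 spots on an array. For miR-451, 11 to 20 of the 20 spots were well above background, the fewest on m5m, an array of 12 hours after 1/3PH. For miR-144 on m24, 1 of 20 spots was well above background, so the call rests on very little signal. Spots above background without a call were seen elsewhere: 3 of 20 on m64 (6 hours after 1/3PH) and 2 of 20 on m65 (normal liver). The arrays m70B, m6, m45B and m46 had 1 of 20 each, as many as m24. The opposite strand of miR-144, miR-144*, was detected on 1 array as well, again m24, with 3 of 20 spots well above background. miR-451* was detected on 0 arrays. No spot of miR-451 or miR-144 was saturated (0 of all arrays). Across the arrays the software detected 91 to 155 miRNAs, and 118 or more apart from m5m. The summed signal of detected miRNAs was 11768 signal units on m5m and 38371 to 67278 on the others, and the group comparisons of miR-451 that include m5m are given again without it below.

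The background-subtracted signal of miR-451, summed over its probes, ran from 19.6 signal units on m5m to 331 on m24, and was 45.3 or more apart from m5m. miR-144 was near background: its signal ran from -4.21 to 7.61 signal units with a median of 0.18. For scale, the lowest probe signal that counted as well above background was 6.48 to 19.4 signal units, depending on the array. The 2 miR-451 probes gave nearly the same picture, with a Pearson correlation of 0.994 over the 26 arrays and an SD of 0.09 for their log2 difference. The 10 spots of a probe varied by a median coefficient of variation of 16.4% for the dimmer and 12.7% for the brighter miR-451 probe.

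To compare arrays, each was divided by its 75th percentile over 109 probes that were well above background everywhere, and log2 was taken. On this scale a value of 0 means a miRNA as bright as that percentile, and each step of 1 is a doubling. Levels are given on this scale from here on. In normal liver miR-451 was -1.04 on m79, -1.22 on m75 and -1.30 on m65. These 3 livers lay close together, with a mean of -1.19 ± 0.13 (SD, n = 3).

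At 6 hours after 1/3PH the 2 livers were -0.18 (m62) and -1.15 (m64). m64 lay within the range of normal liver and m62 well above it. At 6 hours after 2/3PH the 3 livers were -1.85 (m70B), -2.07 (m76) and -2.25 (m67). All 3 lay below every normal liver and below both livers of the smaller resection, with the lowest group mean of all, -2.06 ± 0.20 (SD, n = 3). At 12 hours after 1/3PH the levels were -1.21 (m2), -1.62 (m5m) and -1.83 (m6). At 12 hours after 2/3PH they were -0.35 (m7), -1.08 (m12B) and -1.94 (m3), the widest group, with 3.01-fold between its highest and lowest liver. The 12-hour groups overlapped.

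At 24 hours after 1/3PH the levels were 0.45 (m24), -0.78 (m20) and -0.84 (m23), the highest group mean of all (-0.39 ± 0.73, SD, n = 3). All 3 lay above every normal liver. At 24 hours after 2/3PH they were -1.08 (m29B), -1.20 (m26) and -2.24 (m31B), all below the livers of the smaller resection at that hour. At 36 hours after 1/3PH the levels were -0.96 (m46), -1.38 (m45B) and -1.87 (m47), and after 2/3PH they were -1.34 (m40), -1.64 (m39B) and -1.81 (m37B). The 36-hour groups overlapped. From the lowest liver (m67) to the highest (m24) miR-451 spanned 6.49-fold.

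**Figure D1:**
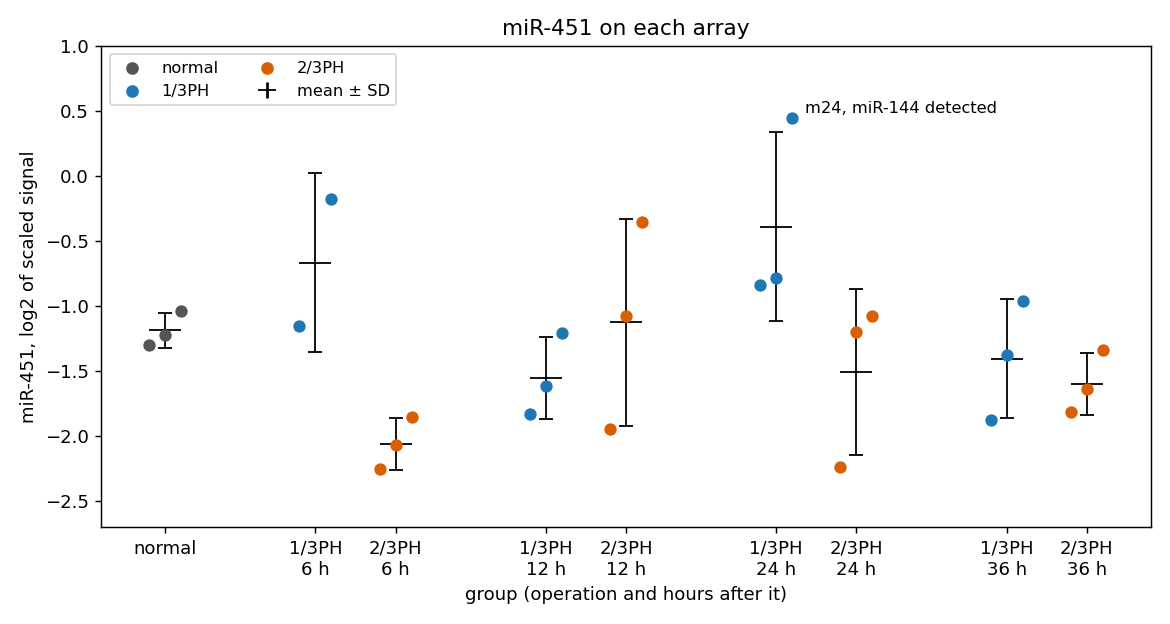
Level of miR-451 (log2 of scaled signal, vertical axis) on each of the 26 arrays, by group (horizontal axis); points are livers and bars are the mean and SD. The 3 livers of 6 hours after 2/3PH sit at -1.85 or below, and m24, the one array with a miR-144 call, is the highest at 0.45.

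Ordered by group mean, miR-451 was highest at 24 hours after 1/3PH, followed by 6 hours after 1/3PH (-0.67), 12 hours after 2/3PH (-1.13), normal liver (-1.19), 36 hours after 1/3PH (-1.41), 24 hours after 2/3PH (-1.50), 12 hours after 1/3PH (-1.55), 36 hours after 2/3PH (-1.60) and 6 hours after 2/3PH (-2.06). Of the 8 pairs of neighbours in this order, 7 overlapped in their ranges and differed by less than the larger of their SDs. The exception was the last step, where the means differed by 0.46 and the ranges of 36 and 6 hours after 2/3PH did not overlap.

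The size of the resection was compared at each hour, with the 2/3PH level minus the 1/3PH level tested by limma and adjusted by Benjamini-Hochberg over 144 miRNAs. At 6 hours miR-451 was lower after 2/3PH by a log2 difference of -1.39 (SE 0.44, 0.38-fold, 95% interval -2.32 to -0.46), with an unadjusted p of 0.0055 and an adjusted p of 0.79. At this hour the adjusted test called 0% of the 144 miRNAs, with 3 at an unadjusted p under 0.05. At 24 hours the log2 difference was -1.11 (SE 0.40, 0.46-fold, unadjusted p 0.011, adjusted p 0.17), where 2.78% of miRNAs were called. At 12 hours it had the other sign, 0.43 (SE 0.40, adjusted p 0.79, with 0% called and 9 miRNAs at an unadjusted p under 0.05), and at 36 hours it was -0.19 (SE 0.40, adjusted p 0.75, with 15.3% called). miR-451 thus passed the adjusted threshold at none of the 4 hours. The operations did not overlap in miR-451 at 6 and at 24 hours. That was also true of 18.1% of all miRNAs tested at 6 hours and of 15.3% at 24 hours, against 6.94% at 12 hours and 36.1% at 36 hours.

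Single livers weighed heavily on these values. Without m24 the 24-hour difference was -0.69 (adjusted p 0.72), and without m31B it was -0.75 (adjusted p 0.61). Without m62 the 6-hour difference was -0.90, without m64 it was -1.88, and the adjusted p was 0.99 and 0.42. At 12 hours the difference was 0.04 without m7, 0.84 without m3 and 0.39 without m5m. With normexp background correction the 6-hour difference was -0.15 (adjusted p 0.77), where the median of all miRNAs was 0.53, and the 24-hour difference was -0.54 (unadjusted p 0.13). An exact two-sided permutation test of each hour gave p = 0.1 for 6, 0.5 for 12, 0.1 for 24 and 0.7 for 36 hours, and 0.1 is the smallest p these group sizes allow.

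Averaged over the 4 hours, miR-451 was lower after 2/3PH by a log2 difference of -0.57 (SE 0.20, 95% interval -0.996 to -0.139, 0.67-fold). The unadjusted p was 0.012 and the adjusted p 0.14, which misses the threshold. Limma called 3.47% of the 144 miRNAs in this comparison, and the median over all of them was -0.06. Permuting the operation exactly within each hour, over 80000 labellings, gave a two-sided p of 0.0519. The 11 livers after 1/3PH ran from -1.87 to 0.45 with a median of -1.15, and the 12 livers after 2/3PH from -2.25 to -0.35 with a median of -1.73, so the operations overlapped widely. Leaving out each array in turn gave -0.69 to -0.45. The adjusted p fell below 0.05 only without m7, the highest liver after 2/3PH (-0.66, adjusted p 0.049), and without m5m it was 0.14 at -0.58. With normexp background correction the average was -0.10 (adjusted p 0.71).

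Against normal liver, miR-451 passed the threshold in none of the 8 groups. The largest differences were at 6 hours after 2/3PH (-0.87, SE 0.40, 0.55-fold, adjusted p 0.40) and at 24 hours after 1/3PH (0.79, SE 0.40, 1.73-fold, adjusted p 0.48). The share of miRNAs called against normal liver ran, in order of the hour, 0%, 4.17%, 0.694% and 0% for 1/3PH and 0%, 6.94%, 18.1% and 18.8% for 2/3PH. At an unadjusted p under 0.05 the 3 comparisons without a call had 8 (6 hours after 1/3PH), 7 (36 hours after 1/3PH) and 15 (6 hours after 2/3PH) miRNAs. The value at 24 hours after 1/3PH dropped to 0.38 without m24. After 1/3PH the remaining values were 0.52 (6 hours), -0.37 (12 hours) and -0.22 (36 hours), with adjusted p of 0.81, 0.57 and 0.86. Without m5m the 12-hour value was -0.33 (adjusted p 0.68). After 2/3PH the remaining values were 0.06 (12 hours), -0.32 (24 hours) and -0.41 (36 hours), with adjusted p of 0.94, 0.67 and 0.50. The value at 6 hours after 1/3PH was 0.03 without m62 and 1.01 without m64. The level of miR-451 did not overlap with normal liver in 3 groups: 24 hours after 1/3PH (as for 13.2% of all miRNAs tested), 6 hours after 2/3PH (19.4%) and 36 hours after 2/3PH (43.8%). It overlapped in the other 5, where the share of miRNAs without overlap was 20.8%, 28.5% and 18.8% for 1/3PH (6, 12 and 36 hours) and 23.6% and 34% for 2/3PH (12 and 24 hours). Averaged over all 8 groups, resected liver differed from normal liver by -0.10 (SE 0.30, 95% interval -0.73 to 0.52, adjusted p 0.82, with 0.694% called), and by -0.097 without m5m.

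Time after the operation was compared as the mean of 24 and 36 hours minus the mean of 6 and 12 hours. After 1/3PH the difference in miR-451 was 0.21 (SE 0.30, 95% interval -0.41 to 0.84, adjusted p 0.70), and 0.19 without m5m (adjusted p 0.90). After 2/3PH it was 0.04 (SE 0.28, 95% interval -0.55 to 0.63, adjusted p 0.92). The late-minus-early difference itself differed between the operations by -0.17 (SE 0.41, adjusted p 0.87), and by -0.15 without m5m. In the same comparisons limma called 9.72%, 34.7% and 6.94% of the miRNAs tested, so many other miRNAs passed the threshold with the hour after 2/3PH and miR-451 did not. Asked whether the 9 groups differed in any way, the F test gave F = 3.02 for miR-451 (unadjusted p 0.022, adjusted p 0.064), while 29.9% of the 144 miRNAs passed it. Leaving out m64, m3 or m7 brought the adjusted p of this F test to 0.046, 0.022 and 0.044, and without m5m F was 2.81 (adjusted p 0.082). With normexp background correction F was 0.56 (adjusted p 0.85).

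**Figure D2:**
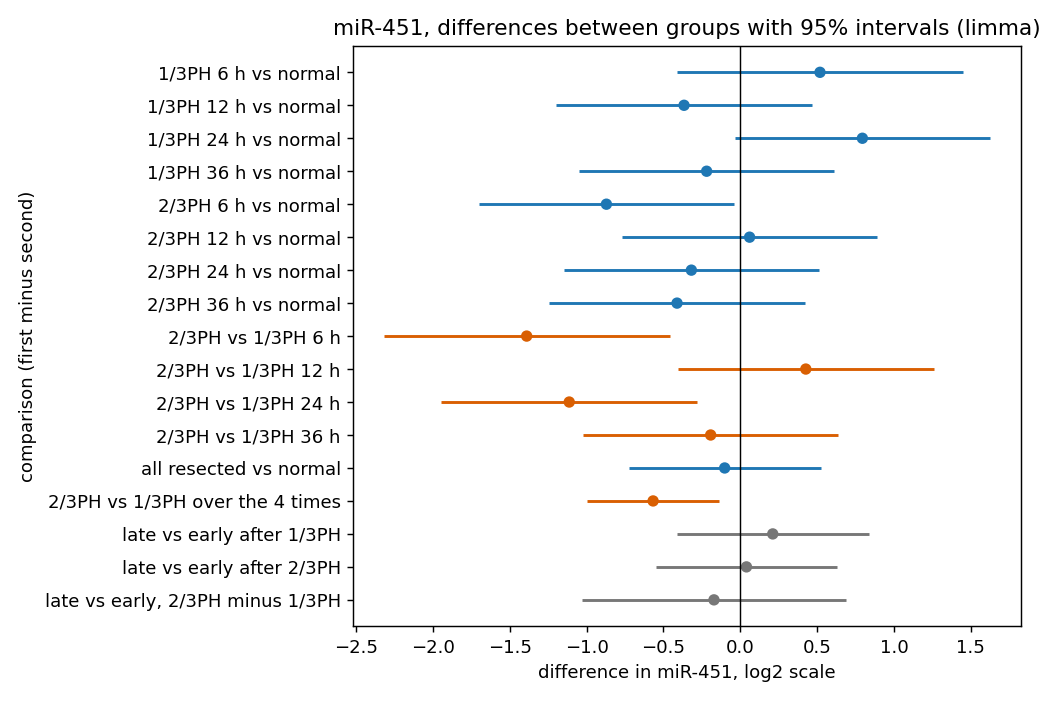
Differences in miR-451 (log2 scale, horizontal axis) for the 17 comparisons (vertical axis, first group minus second), with 95% intervals from limma that are not adjusted for many tests. The intervals of 2/3PH against 1/3PH at 6 hours (-1.39), at 24 hours (-1.11) and over the 4 hours (-0.57), and of 6 hours after 2/3PH against normal liver (-0.87), lie below 0, and all adjusted p were above 0.05.

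Arrays shared slides and scan days, which were looked at as batches. Knowing the group accounted for 56.3% of the variation of miR-451 over the 26 arrays, the slide (6 slides) for 6.07% and the scan day (3 days) for 3.16%, as a description that grows with the number of levels. The 6-hour difference was -1.39 within slide 3, which held 2 livers of each. The 12-hour difference was 0.68 within slide 1 (2 livers after 2/3PH against 1) and 0.37 within scan day 1 (2 against 2). Within slide 5 it was 0.54, from 1 liver of each, m12B and the weak array m5m. At 24 hours no slide held both operations, and within scan day 1, which held all but m24, they differed by -0.69. m24 was on slide 5 and was scanned on day 3, whereas m20 and m23 were on slide 1 and scanned on day 1, and the other 4 arrays of slide 5 had miR-451 levels of -1.08 to -2.07. At 36 hours no slide and no scan day held both operations. With scan day as a term in the fit, the differences were -1.47, 0.43, -1.04 and -0.23 in order of the hour.

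miR-451 varied more between livers of the same group than most miRNAs did. Its within-group SD was 0.51 (log2), against a median of 0.28 over the 144 miRNAs tested, where it ranked 27. Most of the miRNAs that varied more were not detected on every array. Among the 82 miRNAs detected on all arrays, miR-451 ranked 6 and the median SD was 0.21.

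**Figure D3:**
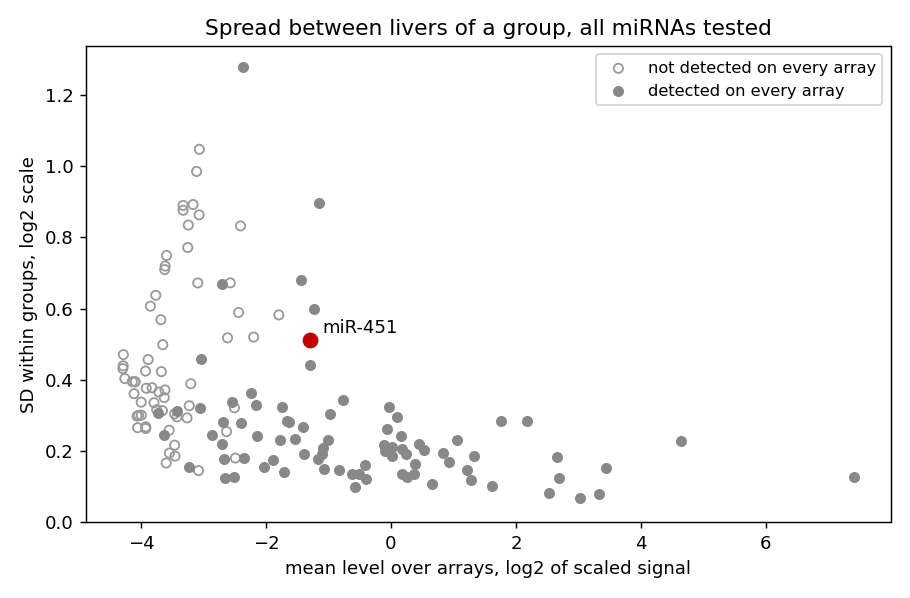
Within-group SD (log2 scale, vertical axis) against mean level (log2 of scaled signal, horizontal axis) for the 144 miRNAs tested; filled points were detected on every array. miR-451, in red, has an SD of 0.51, above the median of 0.21 for the filled points.

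With 1 call of miR-144 in 26 arrays, the members could not be compared as detected levels. The background-subtracted signal, which is given for every spot whether detected or not, was used instead, a choice made after seeing the data. The 3 livers with the highest miR-451, m24, m62 and m7, also had the 3 highest miR-144 signals, 7.61, 6.41 and 5.80 signal units. The liver with the lowest miR-451, m67, had the lowest miR-144 signal, -4.21 signal units. m64, with 3 spots of miR-144 above background, had a summed signal among the lowest (-3.50), and m75 and m2 reached 4.14 and 4.22 signal units at ordinary miR-451.

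Over the 26 arrays the miR-144 signal and the miR-451 level had a Pearson correlation of 0.73 (permutation p = 6e-05, adjusted over the 3 relations computed 0.00018). Spearman's rho was 0.54 (permutation p = 0.00519, adjusted 0.0156). Without the 2 livers farthest from the median miR-451 the correlation was 0.55 over 24 arrays (permutation p = 0.00532), and over the 25 arrays without a miR-144 call it was 0.64. With the group mean subtracted from both measures it was 0.69, so the relation was also there among livers of the same group. Within scan day 1 it was 0.73 over 17 arrays, within scan day 3 it was 0.83 over 6 arrays (exact permutation p = 0.0736), and scan day 2 held too few arrays. Arrays differ in the level of empty spots, so the median signal of 348 miRNAs with 2 probes that were detected on no array, -6.72 to -0.53 signal units, was also subtracted, and the correlation was then 0.80.

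The miR-144* signal followed miR-451 less closely. On m24 it was 6.73 signal units, and the next highest array had 3.33. The Pearson correlation was 0.55 (permutation p = 0.00479, adjusted 0.00718) and Spearman's rho 0.36 (permutation p = 0.0712, adjusted 0.107). Without the 2 farthest livers the Pearson correlation was 0.31 (permutation p = 0.14), and without m24 it was 0.29 (permutation p = 0.157). Over the signals as they are, this relation thus leaned on those livers. With the group mean subtracted from both measures the Pearson correlation was 0.56. Without the 2 livers farthest on that measure it was 0.42. No p is given for these values, since deviations from the mean of a small group are not independent of each other. Within scan day 1 the correlation of the signals as they are was 0.34 over 17 arrays (permutation p = 0.182). Within scan day 3 it was 0.92 over 6 arrays that include m24 (exact permutation p = 0.0514). With the level of empty spots subtracted it was 0.76, and 0.55 without the 2 farthest livers (permutation p = 0.00509). The total signal of an array, the third relation computed, had a Pearson correlation of 0.14 with miR-451 (permutation p = 0.467) and Spearman's rho of 0.23 (permutation p = 0.267). Within scan day 1 these were 0.54 and 0.55 over 17 arrays (unadjusted permutation p = 0.023 and 0.0229), and the Pearson correlation was 0.35 without the 2 farthest arrays. Within scan day 3 the Pearson correlation was 0.24 over 6 arrays (exact permutation p = 0.438).

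**Figure D4:**
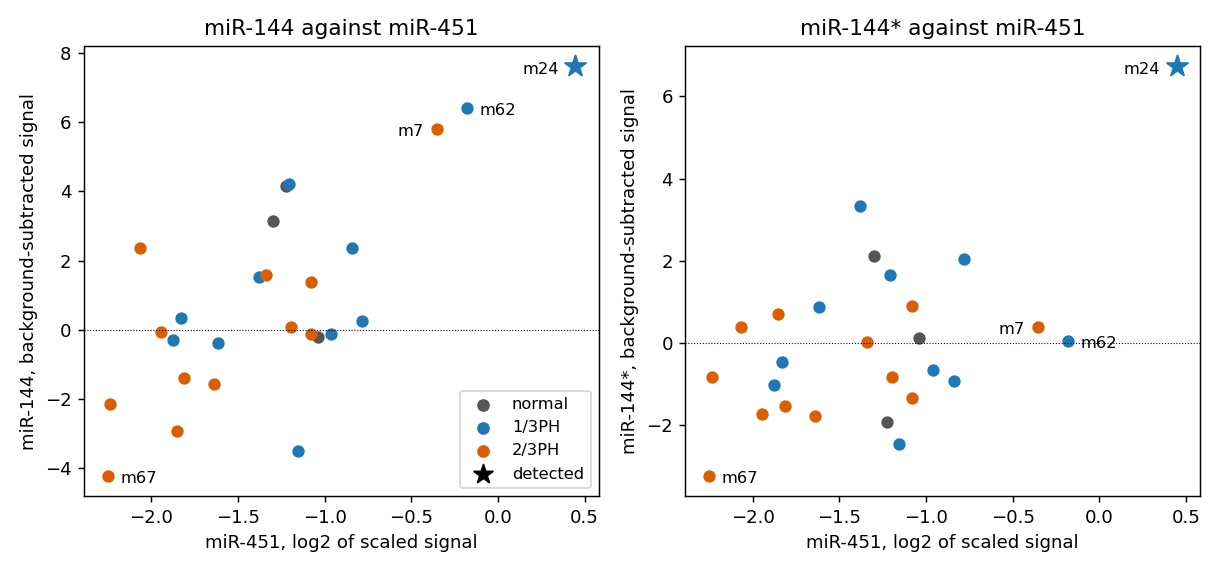
Background-subtracted signal (signal units, vertical axis) of miR-144 (left) and miR-144* (right) against the miR-451 level (log2 of scaled signal, horizontal axis) on the 26 arrays; stars mark arrays where the software detected the strand. m24, m62 and m7 are highest for both miR-451 and miR-144, whereas miR-144* is high on m24 alone.

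Other miRNAs known to be abundant in red cells or reticulocytes were no closer to miR-451, by the median, than miRNAs at large. The list held miR-16, miR-92a, miR-25, miR-185, miR-363, miR-96, miR-182, miR-183, miR-106b, miR-15b, miR-107, miR-103 and let-7b, most of which liver cells make as well. All 13 were on the array, 8 were detected on every array, 9 could be tested and 2 were detected nowhere. Their correlations with miR-451 over the 26 arrays, a description over miRNAs that share each array's scaling, ran from -0.46 (miR-92a) to 0.17 with a median of 0.01, against a median of 0.03 over all 81 other miRNAs detected on every array. In the average of 2/3PH against 1/3PH, where 3.47% of the 144 miRNAs were called, 1 of the 9 rose and 0 fell, with a median of 0.12 against -0.06 over all miRNAs. The one was miR-15b, a relative of miR-16 that restrains the cell cycle, at 0.38 (SE 0.07, adjusted p 0.0033), and it passed in 3 of 6 other ways of scaling or summing signals.

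At 36 hours, where 15.3% of the 144 miRNAs were called (15 higher and 7 lower), 4 of the 9 rose in 2/3PH over 1/3PH and 0 fell: miR-15b by 1.33 (adjusted p 1.6e-06), miR-25 by 0.58 (adjusted p 0.019), miR-106b by 0.57 (adjusted p 0.017) and miR-92a by 0.48 (adjusted p 0.033). miR-106b and miR-25 come from 1 cluster tied to cell division, and the study singled out that cluster on these samples. The study also picked miR-92a on them, so the direction of miR-106b, miR-25 and miR-92a is not independent evidence. miR-451 was -0.19 in the 36-hour comparison. The direction of these 4 was the same under those 6 alternatives, in which miR-15b passed in 5, miR-25 and miR-92a in 3 and miR-106b in 1. At 6, 12 and 24 hours, where 0%, 0% and 2.78% of all miRNAs were called, 0 of the 9 passed in either direction. Against normal liver, miR-15b, miR-25 and miR-106b rose and 0 fell at 24 and 36 hours after 2/3PH, where 18.1% and 18.8% were called. They passed in 1, 2 and 2 of the 6 alternatives at 24 hours and in 4, 2 and 2 at 36. miR-451 was -0.32 and -0.41 there. From early to late hours miR-106b rose after 1/3PH (not with normexp) and the same 3 after 2/3PH, where 9.72% and 34.7% were called. miR-23a, which is little affected by red cells and serves as a reference for haemolysis in plasma, was -0.10 in 2/3PH against 1/3PH over the 4 hours (adjusted p 0.63).

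Of the relatives of miR-144 by seed, miR-101a was detected on 25 arrays and miR-101b on 26. The study picked miR-101a on these samples too, so its direction is not independent evidence either. The share of all miRNAs called between early and late hours was 9.72% after 1/3PH and 34.7% after 2/3PH. Both relatives rose from early to late hours after 1/3PH, by 0.61 (adjusted p 0.017) and 0.55 (adjusted p 0.0079), and after 2/3PH, by 0.49 (adjusted p 0.013) and 0.74 (adjusted p 3.8e-05). In the same 6 alternatives miR-101b passed in 3 after 1/3PH and in 4 after 2/3PH, whereas miR-101a passed in 1 and 0, and after 1/3PH it turned to the other sign with normexp correction and with the software's total gene signal. At 12 hours after 2/3PH, where 6.94% were called, both were lower than in normal liver, miR-101a by a log2 difference of -0.94 (adjusted p 0.015, passed in 1 of the 6 alternatives) and miR-101b by -0.67 (adjusted p 0.019, passed in 2). Neither passed in 2/3PH against 1/3PH at any of the 4 hours. miR-101b had a correlation of 0.10 with miR-451.

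The 5 miRNAs most like miR-451 across the 26 arrays, among those detected on every array, were miR-143 (Pearson correlation 0.53), miR-142-3p (0.44), miR-199a-3p (0.42), miR-140 (0.39) and miR-322 (0.32). Without m24 these were 0.37, 0.39, 0.19, 0.32 and 0.31, so m24 carried much of the likeness of miR-143 and miR-199a-3p. miR-143 and miR-199a-3p are known from smooth muscle and stellate cells and miR-142-3p from leukocytes.

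**Figure D5:**
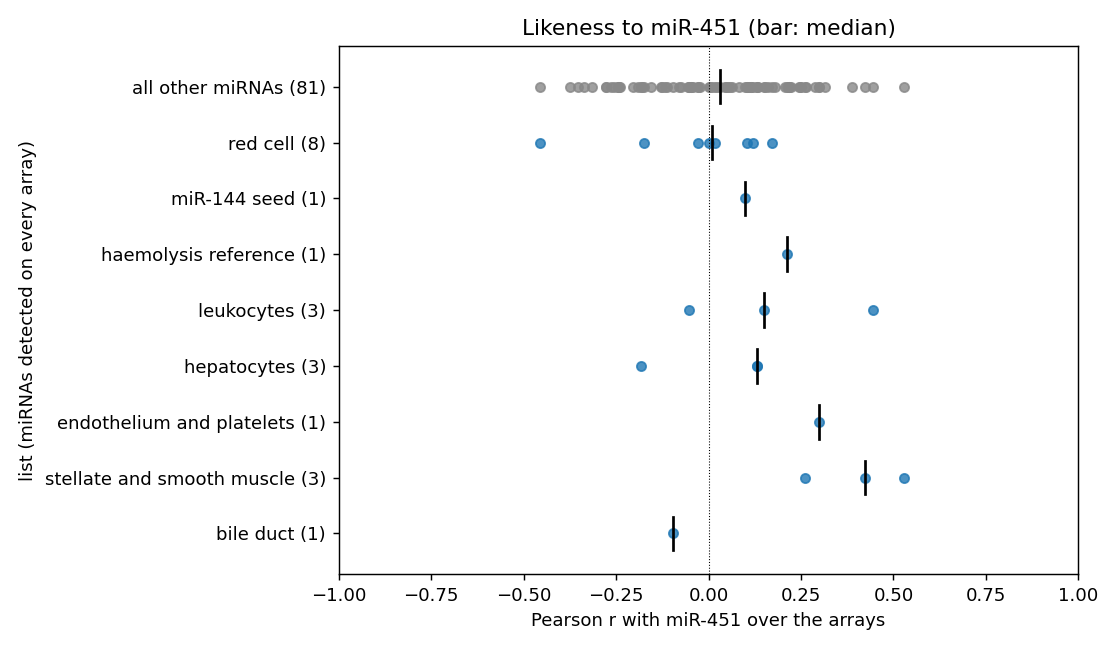
Pearson correlation with miR-451 over the 26 arrays (horizontal axis) for each miRNA detected on every array, by list (vertical axis, number of miRNAs in brackets); the bar is the median. The 8 red cell miRNAs have a median of 0.01 and all 81 miRNAs one of 0.03.

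Markers of other cells were read beside miR-451, and their part in its differences was not tested. Of 7 leukocyte miRNAs, 6 were on the array, 5 could be tested and 1, miR-142-5p, was detected nowhere. In 2/3PH against 1/3PH at 24 hours, where miR-451 was lower by -1.11 and 2.78% of all miRNAs were called, 0 of these 5 passed. All 5 were negative and their median was -0.18, against 0.01 over all miRNAs. miR-142-3p was -0.53 there (adjusted p 0.54) and miR-223 -0.40 (adjusted p 0.70). At 6 hours, where 0% of all miRNAs were called, the median was 0.15, with 0 of 5 past the threshold and 2 negative. Against normal liver, 2 of the 5 were lower at 24 hours after 2/3PH, where 18.1% were called. They were miR-142-3p (-1.05, adjusted p 0.013) and miR-150 (-0.58, adjusted p 0.014), which passed in 3 and 1 of the 6 alternatives. At 36 hours after 2/3PH, where 18.8% were called, miR-150 was lower (-0.74, adjusted p 0.0025). That passed in 2 alternatives and turned sign with normexp. From early to late hours after 2/3PH, where 34.7% of all miRNAs were called (27 higher and 23 lower), 2 of the 5 fell, miR-146a by 0.60 and miR-150 by 0.51, with adjusted p of 0.0014 and 0.0012. They passed in 3 and 1 of the 6 alternatives. The summed level of the 3 leukocyte miRNAs detected on every array was -0.48 to -0.09 at 24 hours after 1/3PH and -0.76 to -0.40 at 24 hours after 2/3PH.

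The hepatocyte miRNAs miR-122, miR-192 and miR-194 were detected on every array, with a summed level of 7.18 to 7.65. Against normal liver, miR-192 was lower at 12 hours after 1/3PH (-0.41, adjusted p 0.012, 4.17% of miRNAs called). It was also lower after 2/3PH at 12 hours (-0.34, adjusted p 0.027, 6.94% called) and 24 hours (-0.29, adjusted p 0.037, 18.1% called). These passed in 1, 0 and 1 of the 6 alternatives. In 2/3PH against 1/3PH 0 of the 3 passed at any hour. The share of all miRNAs called there was 0%, 0%, 2.78% and 15.3%, in order of the hour. The endothelial and platelet miRNA miR-126 was detected on every array and did not pass there either, with -0.06 over the 4 hours (adjusted p 0.72). Of the 4 miRNAs of stellate and smooth muscle cells, 3 could be tested and 0 passed in 2/3PH against 1/3PH. miR-145 was detected nowhere. Of the 4 bile duct miRNAs, miR-200c and miR-141 were detected nowhere and 2 could be tested. miR-200b was higher at 36 hours in 2/3PH than in 1/3PH by 0.90 (adjusted p 0.041), passing in 1 of the 6 alternatives. Against normal liver it was higher at 12 hours after 1/3PH (1.35, adjusted p 0.012, 4.17% called). After 2/3PH it was higher at 24 (0.87, adjusted p 0.044, 18.1%) and 36 hours (1.34, adjusted p 0.0025, 18.8%). These passed in 3, 0 and 3 of the alternatives. miR-200a was higher at 36 hours after 2/3PH (0.90, adjusted p 0.036), passing in 0. From early to late hours after 2/3PH, where 34.7% were called, miR-200b and miR-200a rose (adjusted p 0.017 and 0.046).

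The array with the miR-144 call was set beside the other 2 livers of its group for the same lists. miR-451 on m24 was 1.26 above the mean of m20 and m23, which ranked 2 among the 82 miRNAs detected on every array, where the median was -0.08. The 8 red cell miRNAs detected on every array had a median of -0.22 in this comparison, and all 8 were at or below 0. The 3 leukocyte miRNAs had a median of 0.43, with miR-142-3p at 0.62, miR-223 at 0.43 and miR-146a at -0.006. miR-199a-3p was 0.87 and miR-214 0.71 higher, and miR-23a 0.58 higher. Of the hepatocyte miRNAs, miR-122 was -0.35, miR-194 -0.33 and miR-192 -0.12. With 1 liver against 2 these are values without a test. m24 was on another slide and scan day than m20 and m23, so liver and batch cannot be told apart here. It was also the array with the highest miR-451 of all, so a large difference in miR-451 was given in advance.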

How the data were processed

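Liver miRNA of 26 rats was measured on Agilent rat miRNA arrays. The authors deposited scanner tables of fluorescence intensity per spot with quality flags, made with Feature Extraction 10.7.3.1 per the labels and file headers, and a table of log2 values normalized between arrays, used here as an alternative. Processed signals were averaged over spots (non-uniform and population outliers left out), summed over the probes of a miRNA, divided by each array's 75th percentile over 109 probes well above background on most spots of all arrays, floored at the dimmest probe still well above background, and put on the log2 scale. Detection is the software's call. limma 3.58.1 (R 4.3.3; lmFit, eBayes) fitted 9 groups for 144 miRNAs, each detected throughout 1 group or more, with 17 contrasts, an F test and Benjamini-Hochberg adjustment within each at 0.05; it was tested on simulated data. Permutations used 100000 resamples unless exact (numpy 2.4.6, Python 3.11.15). Members, lists and named miRNAs (the members, their star strands, list members that passed or on which a result turns, and the 5 most like miR-451) were chosen with earlier results of these data known. Each array is 1 rat, and the number of arrays limits the precision. Slides and scan days were numbered from the file headers. Alternatives covered scaling, background, probe summary, floor, filter, batches and leaving out each array.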

Additional observations from a re-analysis of the deposited data

Results flagged for a closer look

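miR-144*, the strand opposite miR-144, entered none of the comparisons between groups. On m24, from 24 hours after 1/3PH, the software detected it with a signal of 6.73 signal units. In normal liver its signal was -1.92 to 2.11 signal units, and no other array had a call. It was singled out as a signal above that of the control livers outside the measurements compared, on the same array as the one miR-144 call and the highest miR-451.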

How the results depend on the processing

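No comparison of miR-451 between groups passed the adjusted threshold in the main fit. Other settings changed sizes and signs and, in some of them, which comparisons passed. The average of 2/3PH against 1/3PH kept its sign in the 15 other settings (-0.69 to -0.10; lowest adjusted p 0.098). The 24-hour difference was -1.54 to -0.54. Dividing by the 75th percentile over all probes moved the median of the 144 miRNAs at 6 hours to -1.32, and the call count from 0 to 89. miR-451 was then -2.66 there (past the threshold), a difference of -1.34 from that median. In that setting miR-451 at 6 hours after 1/3PH against normal liver was 1.70 and F was 4.68, both past the threshold, and signs turned for 12 hours after 2/3PH against normal liver (-0.26), 2/3PH against 1/3PH at 36 hours (0.29), late against early hours after 1/3PH (-0.15) and 2/3PH (-0.031), and the difference between those (0.12). With normexp the 6-hour difference was -0.15 and the median there 0.53 (a difference of -0.68), F was 0.56, and signs turned for 1/3PH at 12 hours (0.24), 2/3PH at 6 (0.17) and at 36 hours (0.32) and all resected livers (0.19) against normal liver, for 2/3PH against 1/3PH at 12 (-0.093) and 36 hours (0.37), and for late against early hours after 1/3PH (-0.077), after 2/3PH (-0.041) and between them (0.036). Without scaling, 12 hours after 2/3PH against normal liver was -0.20. Late against early hours after 2/3PH was -0.10 with total gene signal, -0.11 with the deposited values and -0.16 with quantile normalization. F passed at 3.18 with total gene signal and at 3.13 with only miRNAs detected on every array. The cause of these changes was not tested.

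Leaving out each array in turn gave -0.44 to 0.016 (1/3PH at 36 hours), -0.33 to 0.47 (2/3PH at 12 hours) and -0.53 to 0.048 (2/3PH at 24 hours) against normal liver, with the sign turned without m47, m7 and m31B. It gave -0.43 to 0.029 for 2/3PH against 1/3PH at 36 hours (turned without m46) and -0.69 to -0.45 over the 4 hours. It gave -0.032 to 0.46 for late against early hours after 1/3PH (turned without m64), -0.16 to 0.23 after 2/3PH (turned without m67, m3, m26, m29B or m40) and -0.41 to 0.073 between the operations (turned without m64, m7, m24 or m31B). F was 2.36 to 4.04. Where 1 liver was left at 6 hours after 1/3PH, it was assumed to vary like the other groups. Slide as a fixed term could be estimated for 10 of 17 comparisons.

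Over all settings the counts of miRNAs called were 0 to 9 (main 4, with 9 without m5m) for 2/3PH against 1/3PH at 24 hours, 0 to 22 (main 22) at 36 hours, 0 to 10 (main 5) over the 4 hours and 2 to 90 (main 43) for the F test. Late against early hours gave 0 to 17 (main 14) after 1/3PH, 4 to 60 (main 50) after 2/3PH and 0 to 17 (main 10) between them. Against normal liver they were 0 to 39 (main 0), 0 to 14 (main 6), 0 to 2 (main 1) and 0 (main 0) after 1/3PH, in order of the hour, 0 to 5 (main 0), 0 to 13 (main 10), 0 to 32 (main 26) and 0 to 35 (main 27) after 2/3PH (32 and 35 without m5m), and 0 to 8 (main 1) for all resected livers.

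The planned comparison of detected miR-451 and miR-144 levels could not be run, since 1 array detected both. The correlation of the miR-144 signal with miR-451 was 0.62 to 0.80 in 7 other settings and 0.64 to 0.78 leaving out each array, with a highest p of 0.00074. Quantile normalization and another floor were not run for it. No paired analysis was possible because replicate numbers were given in accession order and name separate rats. With the miR-144 signal near background on all 26 arrays, including the 1 array with a call, group differences in miR-144 were not tested.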
